A study of Mus musculus with 167 samples.

Results

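The G2 and mitosis genes described here are 51 listed genes whose products work in the spindle, the chromosomes, the mitotic checkpoint or cytokinesis. They are 51 of the 38924 genes of the deposited table and were chosen by name and function; each was found as a single row. The table holds RNA abundance in single lymphoid-primed multipotent progenitors (LMPPs), blood progenitors that can still form lymphoid and granulocyte-monocyte cells. They were isolated from marrow of C57Bl/6J females aged 4 months or 14 months; the labels name no mutation and no treatment. They were sorted as Lin-, Sca1+, cKit+, CD150-, CD34+ and Flk2hi, where Flk2 is the receptor encoded by Flt3, and captured singly on a microfluidic chip. The labels name no animal, so each age counts as 1 sample, and the differences between ages below have no replicate check and no p-value.

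A dividing cell copies its DNA in S phase, passes through the gap called G2 and separates its chromosomes in mitosis. Cyclin-dependent kinase 1 with a B-type cyclin drives entry into mitosis, the spindle attaches to kinetochores on the chromosomes, and a ubiquitin ligase, the anaphase-promoting complex, then destroys the cyclin so that the cell can divide. Many genes of this programme are known to be switched on late in the cycle through promoters that hold CCAAT boxes, bound by the factor NF-Y, and a CHR element, bound by complexes that repress the gene in resting cells and activate it in cycling cells. LMPPs are known as progenitors of which a part is in cycle at any time, so a group of single cells holds cells with and without this programme.

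Promoters of the members held CCAAT letters more often than promoters at large. The RefSeq promoter table (GRCm38.p6, the patch release of the mm10 assembly) had 50 promoters for 45 of the 51 members, and the 250 bases before each start were searched on both strands for CCAAT and for the CHR letters TTTGAA and TTCGAA. The latter reads the same on both strands, and neighbouring matches may overlap. At least 1 CCAAT was found in 38 of the 50 member promoters (76.0%), against 35.7% of the 8725 promoters of all measured genes and 33.8% of all 32851 promoters. Counts of 2 or more CCAAT were found in 54.0% of the member promoters and in 13.6% of those of measured genes, and counts of 3 or more in 28.0% and 4.64%. CHR letters were found in 22 member promoters (44.0%), against 13.1% for measured genes and 17.1% for all promoters. Both kinds stood together in 40.0% of member promoters and in 5.13% of those of measured genes. A list of further G2 and mitosis genes, described below, had 65 promoters and was close to the members for CHR letters (38.5%). Of these promoters 60.0% held CCAAT and 24.6% held both kinds, so the letters are not particular to the members. The S phase list, which shares the CCAAT letters (67.6% of its 34 promoters), held CHR letters in 17.6%.

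**Figure D1:**
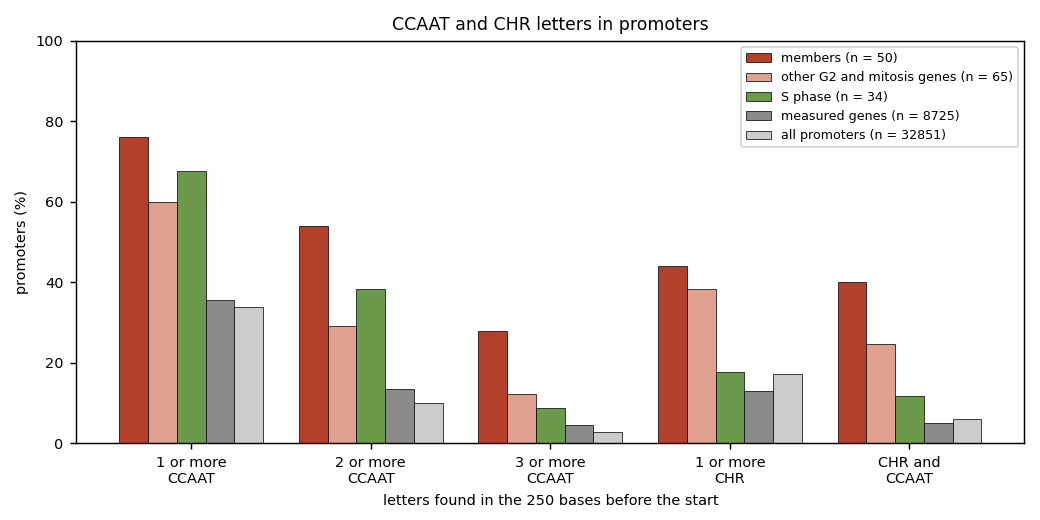
Share of promoters (y axis, %) with CCAAT or CHR letters in the 250 bases before the start (x axis), for 5 sets of promoters whose numbers are in the key. The bars of the members are the highest for each kind of match, and the S phase bar is close to the 2 background bars for CHR (17.6% against 13.1% and 17.1%).

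These promoters show the arrangement in the 250 bases before the start of 5 members that the results below return to, and in Ndc80, which has neither kind of match. Capitals mark CCAAT, its reverse complement ATTGG and the CHR letters or their reverse complement.
Top2a, chr11:99024190-99024439, minus strand: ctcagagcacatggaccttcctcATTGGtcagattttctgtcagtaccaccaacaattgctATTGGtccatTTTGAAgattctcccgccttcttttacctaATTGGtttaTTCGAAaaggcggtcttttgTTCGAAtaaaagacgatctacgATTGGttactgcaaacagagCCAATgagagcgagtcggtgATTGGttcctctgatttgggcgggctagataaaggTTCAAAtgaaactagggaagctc
Ube2c, chr2:164769679-164769928, plus strand: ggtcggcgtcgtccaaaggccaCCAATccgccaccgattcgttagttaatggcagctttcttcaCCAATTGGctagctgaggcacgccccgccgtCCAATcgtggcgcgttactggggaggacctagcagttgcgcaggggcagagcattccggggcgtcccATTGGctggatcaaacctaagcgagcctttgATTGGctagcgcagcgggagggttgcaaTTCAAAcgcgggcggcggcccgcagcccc
Ccnb2, chr9:70421555-70421804, minus strand: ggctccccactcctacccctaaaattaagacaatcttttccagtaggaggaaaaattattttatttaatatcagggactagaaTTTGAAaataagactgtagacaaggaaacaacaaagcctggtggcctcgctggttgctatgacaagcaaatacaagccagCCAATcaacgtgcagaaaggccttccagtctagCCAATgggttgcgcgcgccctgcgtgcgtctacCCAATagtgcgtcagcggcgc
Cdk1, chr10:69352913-69353162, minus strand: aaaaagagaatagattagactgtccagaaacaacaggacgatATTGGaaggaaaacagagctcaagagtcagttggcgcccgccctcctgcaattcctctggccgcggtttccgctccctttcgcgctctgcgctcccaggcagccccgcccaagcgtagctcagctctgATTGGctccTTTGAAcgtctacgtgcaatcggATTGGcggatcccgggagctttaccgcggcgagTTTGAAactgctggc
Cdc20, chr4:118437344-118437593, minus strand: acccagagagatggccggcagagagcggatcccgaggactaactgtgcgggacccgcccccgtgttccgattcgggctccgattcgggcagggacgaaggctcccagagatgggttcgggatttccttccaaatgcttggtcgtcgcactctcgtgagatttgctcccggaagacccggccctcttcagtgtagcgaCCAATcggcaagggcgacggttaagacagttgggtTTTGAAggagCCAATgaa
Ndc80, chr17:71526858-71527107, minus strand: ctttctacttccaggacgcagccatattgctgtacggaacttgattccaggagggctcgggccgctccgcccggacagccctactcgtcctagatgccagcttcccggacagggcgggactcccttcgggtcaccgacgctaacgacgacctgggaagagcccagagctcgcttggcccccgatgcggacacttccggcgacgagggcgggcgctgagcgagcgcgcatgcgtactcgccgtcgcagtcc
Top2a and Ube2c had 6 CCAAT matches each, and Top2a also had 4 CHR matches. In Ccnb2 the 3 CCAAT matches begin at positions -87, -54 and -21 from the start, evenly spaced. Cdk1 has CHR letters at -71 and -15, and Cdc20 has them at -18 between CCAAT matches at -53 and -8. Of the 50 member promoters 10 had neither kind of match, those of Anln, Birc5, G2e3, Kif20b, Ndc80, Nuf2, Nusap1, Rangap1, Tacc3 and 1 of the 2 of Cbx5. A match is a description of letters, and their absence says only that the letters are not in this window.

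The table has 84 columns of each age, 1 per captured cell, and columns with at least 1000 genes at a TPM of 1 or more were kept (TPM is the number of transcripts scaled to a total of 1000000 per cell): 66 of 14 months and 64 of 4 months. The labels list 83 cells of 14 months, so 1 column of that age has no label of its own. Column names of 14 months carry set number 4 (29 kept cells) or 5 (37 kept cells), which the sources used here do not explain, and those of 4 months carry none, so age and capture cannot be told apart. The scaling gives each cell the same total, so sequencing depth cannot be read from the values and detection is not corrected for it. A gene is called detected at TPM 1 or more. Kept cells had a median of 3974.5 genes detected at 4 months, 3230 in set 4 and 3376 in set 5. Mitochondrial transcripts made up a median of 12.4% of the total at 4 months, 20.5% in set 4 and 15.8% in set 5. The highest kept cells reached 69.1%, 80.6% and 91.7%. Of the sort's genes Flt3 was detected in 61 of 66 cells of 14 months and 64 of 64 of 4 months, Cd34 in 58 and 57, Kit in 35 and 43 and Ly6a in 25 and 25. Slamf1, which encodes CD150, was listed at 0 in every kept cell, while Itgam, a lineage gene the sort selects against, was detected in 17 and 44. Of 8385 pairs of kept cells, 4 pairs, all of 14 months, had correlations over the measured genes above 0.75. The highest, 0.966, joined a set 4 cell with a set 5 cell that held 19 and 17 members.

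Single LMPPs spread over nearly the whole range of this programme at both ages. The number of members detected in a cell ran from 2 to 48 of 51 at 14 months, with a median of 15.5 and quartiles of 10.25 and 32. At 4 months it ran from 5 to 50, with a median of 16 and quartiles of 10 and 31. Counts of 30 or more were found in 20 of 66 cells of 14 months (30.3%, exact 95% binomial interval 19.6 to 42.9%) and in 18 of 64 cells of 4 months (28.1%, 95% limits 17.6 and 40.8%), and counts of 9 or fewer in 15 and 12 cells. All intervals given here cover counting error only. The medians of the sets were 14 and 17, and 9 of 29 cells in set 4 and 11 of 37 in set 5 held 30 or more. The distributions of the ages overlapped over most of their range. The number of members followed the number of all genes detected in a cell, with Spearman correlations of 0.75 across the 66 cells of 14 months and 0.80 across the 64 of 4 months. When cells of both ages were paired on genes detected, within 5%, 44 cells of each age remained. Their medians were 22 members at 14 months and 12 at 4 months, so the near-equal medians did not hold under that pairing. In cells with at least 2000 genes detected, without pairing, the medians were 21 and 17.5.

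**Figure D2:**
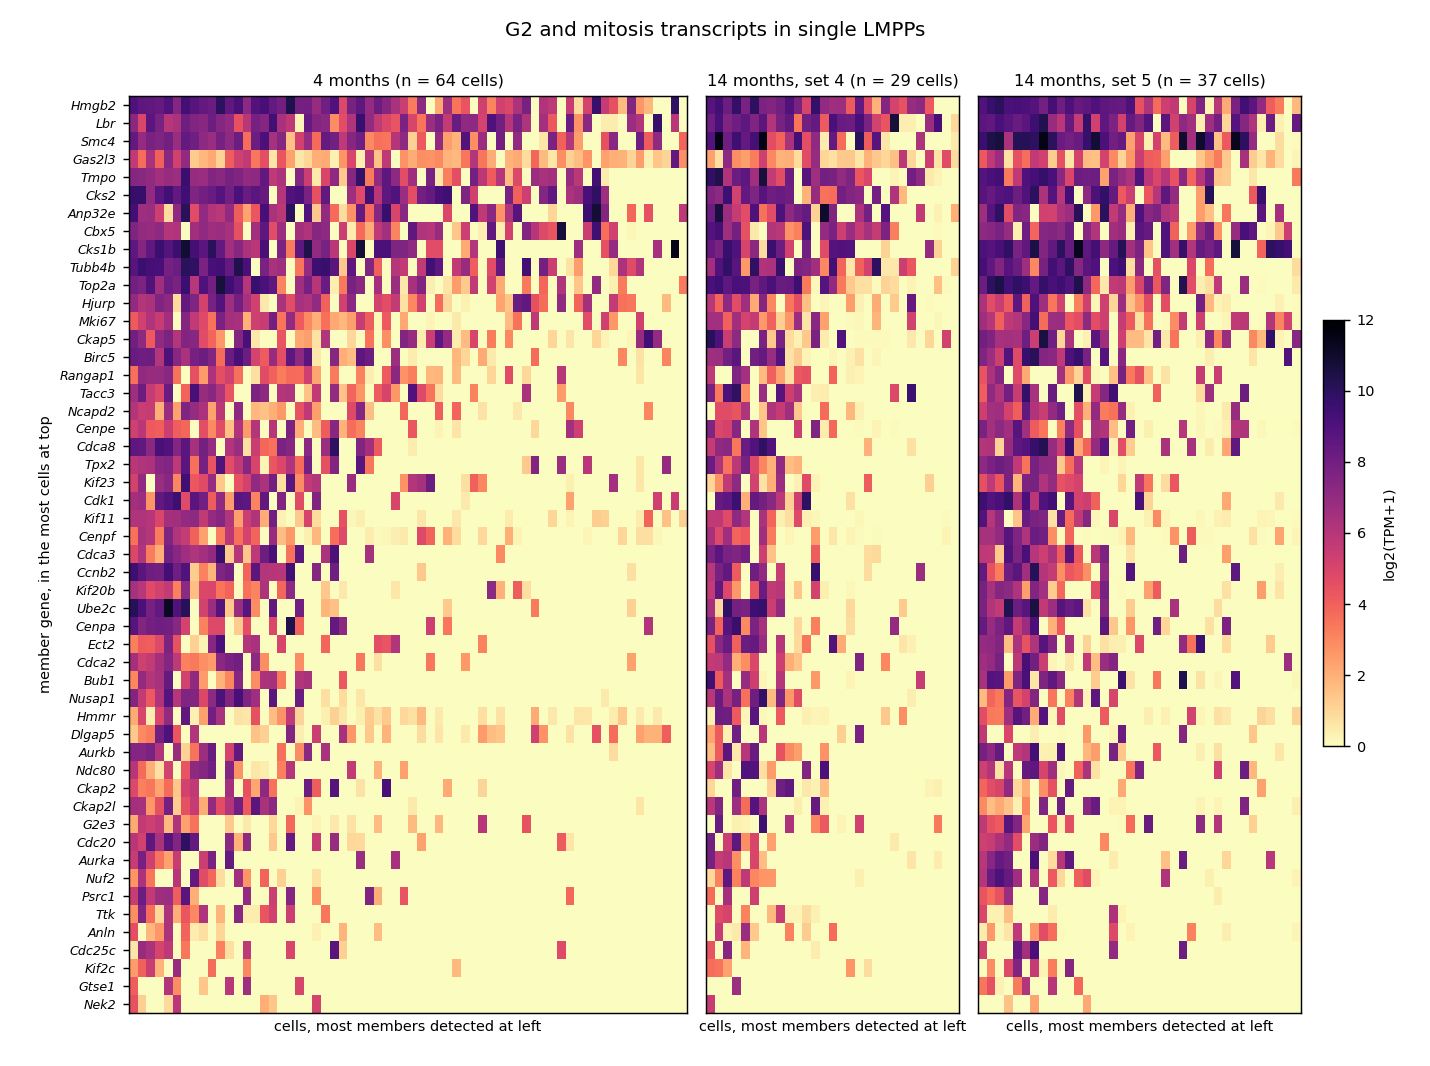
Level of each member (rows, log2(TPM+1), colour) in each kept cell (columns) of 4 months (n = 64) and of 14 months in set 4 (n = 29) and set 5 (n = 37), with the cells holding the most members at the left and the genes found in the most cells at the top. The dark wedge at the left of each panel holds the cells with most members, and Hmgb2 at the top is dark in most cells, while Nek2 and Gtse1 at the bottom are pale in nearly all.

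Members differed widely in how many cells held them. Hmgb2, a DNA-bending chromatin protein, was detected in 60 of 66 cells of 14 months and 56 of 64 of 4 months. Lbr, the lamin B receptor of the inner nuclear membrane, was in 56 and 54 cells, and Smc4, the core ATPase of condensin, in 50 and 52. At the other end, Nek2, a centrosome kinase, was in 4 and 6 cells, Gtse1, a microtubule-binding protein, in 7 and 7, and Kif2c, a kinesin that shortens microtubules at the kinetochore, in 10 and 8. Nek2 was the only member below the filter that defines a measured gene, a mean of the shares of both ages of at least 10%. That filter passed 50 of the 51 members and 9224 of the 38924 genes.

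Many of the rarer members sat in cells that held most of the list, but not all of them did. Cells with Kif2c held a median of 41 other members at 14 months and 43.5 at 4 months, and cells with Aurka held 40 and 42. Cells with G2e3 held 25 and 40, and cells with Dlgap5 29.5 and 18. Cells with Hmgb2 held 18 others at both ages. Cdc20, the activator that turns the anaphase-promoting complex on when the checkpoint is satisfied, was detected in 14 cells of 14 months. Of these 13 also held Top2a, 12 held Ccnb2 and 14 held Ube2c, whereas of the 43 cells with Top2a 13 held Cdc20. At 4 months 15 of the 17 cells with Cdc20 held Top2a and 15 held Ccnb2, while of 41 cells with Top2a 15 held Cdc20. Over all kept cells the share with Top2a was 65.2% at 14 months and 64.1% at 4 months, and Cdc20 is in too few cells to be in most of those with Top2a.

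Members varied together from cell to cell. Of the 1225 pairs of measured members, 1222 had a positive Spearman correlation across the 66 cells of 14 months and 1218 across the 64 of 4 months, with medians of 0.38 and 0.40. Each member's level was also set against the number of the other members in the cell. The median of these correlations was 0.59 at both ages, against medians of 0.19 and 0.23 for the 9174 measured genes that are no members. Cells of an age differ in the number of genes detected, and those of 14 months also in set. With genes detected taken out by regression on ranks, the members' medians were 0.41 and 0.39 and all 51 stayed above 0 at both ages. Neither this adjusted value nor the share of positive pairs was computed over all measured genes, so these counts have no background. Members that followed the rest most closely at both ages were Nusap1, a spindle protein (0.74 at 14 months and 0.73 at 4 months), Top2a (0.81 and 0.69), the chromosomal passenger Cdca8 (0.69 and 0.78), Cdca3 (0.69 and 0.74) and Birc5 (0.66 and 0.72). Among the measured members Dlgap5, a microtubule-bundling protein (0.34 and 0.09), and Gas2l3, a linker of actin and microtubules (0.39 and 0.31), followed least, then Lbr (0.44 and 0.34), Anp32e, a histone chaperone (0.47 and 0.36), and Ckap5, a microtubule polymerase (0.46 and 0.38). Dlgap5 was detected in 12 of 66 cells at 14 months and 26 of 64 at 4 months, with medians over the cells that held it of 41.4 and 6.14 TPM.

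As a group the 50 measured members had similar shares of cells at 14 and 4 months, with means of 41.5% and 41.7%, while most genes were found in fewer cells at 14 months. Over all measured genes the share of cells differed by a median of -8.10 percentage points, 14 months minus 4 months, and 18.4% of genes had a higher share. Of the 51 members 30 had a higher share at 14 months and 21 a lower one, with a median difference of 0.616 points. The exact 95% intervals of the ages overlapped for all 51, while over the measured genes 8.25% had intervals that did not. Single members still differed widely, with Dlgap5 in 18.2% and 40.6% of cells, Birc5 in 37.9% and 51.6% and Ect2 in 40.9% and 26.6%. In the cells that held them, 36 of the 51 members had a higher mean log2(TPM+1) at 14 months, with a median difference of 0.39, against 50.7% of measured genes and a median of 0.02. In set 4 the members' shares were a median of 3.99 points below those of 4 months and in set 5 3.76 points above, while their level in the cells that held them was higher in both, by 0.39 and 0.56. Genes detected per cell, which were fewer at 14 months, move with all of these values, and their part was not tested.

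**Figure D3:**
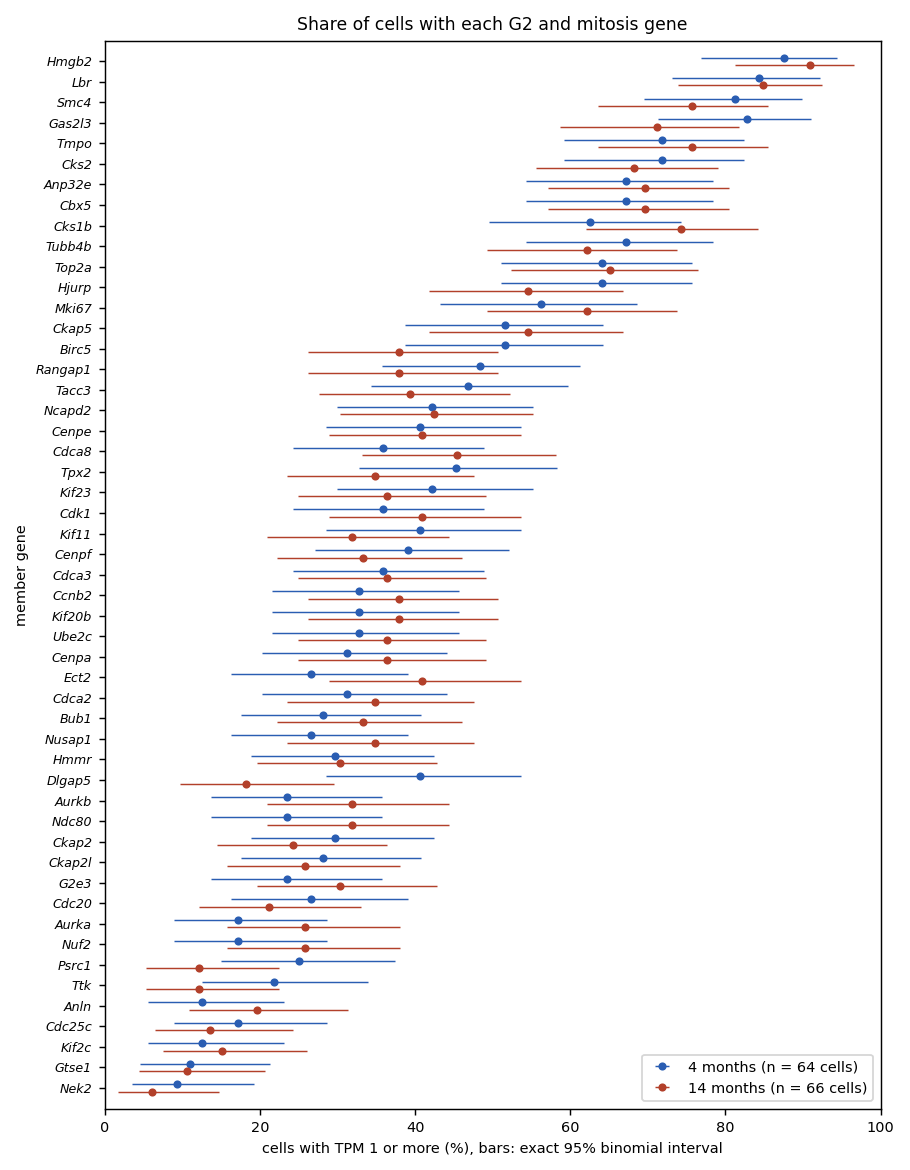
Share of kept cells with each member (x axis, %, points) and its exact 95% binomial interval (bars) at 14 months (n = 66 cells) and 4 months (n = 64 cells). The intervals of the ages overlap for all 51 members, and shares run from 90.9% and 87.5% for Hmgb2 to 6.06% and 9.38% for Nek2.

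Means over all kept cells were compared as log2(TPM+1), subtracting 4 months from 14 months; on this scale differences of low genes come out too small. Over the measured genes the median difference was -0.36, so differences are given relative to it; on that scale a gene at 0 in every cell stands at 0.36, and at 0.43 in set 4 and 0.34 in set 5. Without that correction 33 of the 50 had their higher mean at 14 months, against 23.0% of measured genes, and the median member was at 0.34. Relative to the median gene the members' median was 0.70, with 0.41 in set 4, just below a gene at 0 in every cell, and 0.85 in set 5. The uncorrected medians of the sets were -0.01 and 0.52. A relative difference of 1 or more was reached by 9 members (18.0%), against 3.37% of measured genes. They are Ect2, Cks1b, Smc4, Ndc80, Lbr, Bub1, G2e3, Top2a and Nuf2. None of the 50 was lower by 1 or more, against 5.08% of measured genes. In set 4 alone 2 members were higher by 1 or more (4.59% of measured genes) and 1 was lower by as much (6.75%). In set 5 these counts were 18 (6.63% of measured genes) and 0 (6.56%). In set 4 the count of higher members is thus near the background. The uncorrected mean was higher than at 4 months for 24 members in set 4 (48.0%, against 22.1% of measured genes) and for 36 in set 5 (72.0%, against 28.7%). Both sets are compared with the same 4-month cells.

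**Figure D4:**
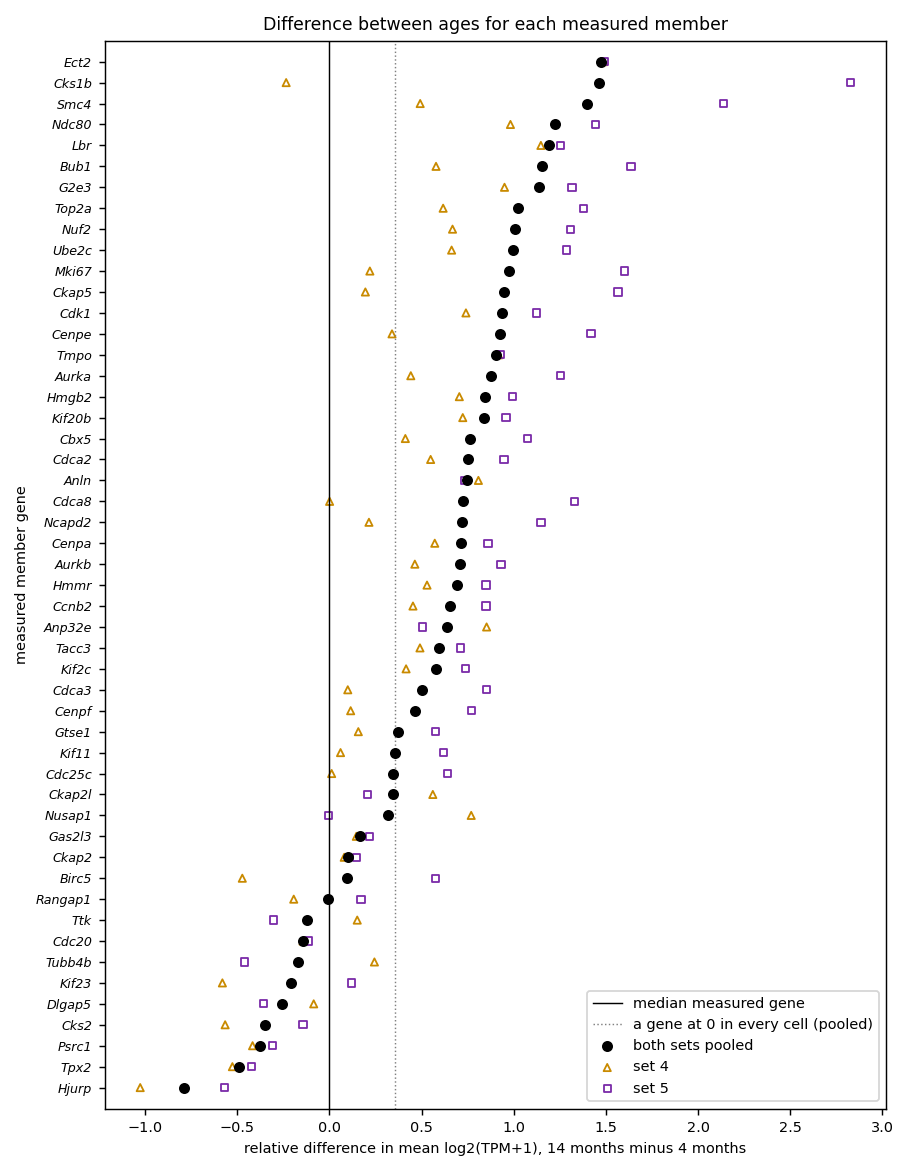
Relative difference in mean log2(TPM+1), 14 months minus 4 months (x axis), for each of the 50 measured members, for both sets pooled (filled), set 4 (triangles) and set 5 (squares); the solid line is the median measured gene and the dotted line a gene at 0 in every cell. Pooled values run from -0.79 for Hjurp to 1.47 for Ect2, and Cks1b has the widest gap between the sets, -0.23 and 2.83.

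Among the kinases, cyclins and their regulators the uncorrected mean was higher at 14 months for 6 of 9 (66.7%, against 23.0% of measured genes). It was higher for 5 in set 4 (55.6%, against 22.1%) and for 7 in set 5 (77.8%, against 28.7%). Cdk1, the kinase that starts mitosis (chromosome 10, 69335146 to 69352938, mm10), had a median of 0 TPM at both ages and highest values of 940 TPM in the older cells and 732 TPM in the younger. It was detected in 27 of 66 cells (40.9%, 95% limits 29.0 and 53.7%) and 23 of 64 (35.9%, 95% limits 24.3 and 48.9%). Its mean log2(TPM+1) was 2.85 (SD over cells 3.85) and 2.27 (SD 3.33), a relative difference of 0.94, so the ages overlap almost fully. Ccnb2, a B-type cyclin and partner of Cdk1, was in 25 and 21 cells at a relative difference of 0.66. Aurka, the centrosome kinase, was in 17 and 11 cells, and Aurkb, the kinase of the chromosomal passenger complex, in 21 and 15. Their relative differences were 0.88 and 0.71. Without the correction Aurka differed by 0.02 in set 4 and 0.92 in set 5, and Aurkb by 0.04 and 0.60. Bub1, a checkpoint kinase, was in 22 and 18 cells, and its highest cells reached 1235 and 332 TPM. Its mean log2(TPM+1) was 2.26 (SD 3.46) and 1.46 (SD 2.57). Ttk, the kinase that starts the spindle checkpoint, was in 8 and 14 cells (relative difference -0.12), and Cdc25c, the phosphatase that activates Cdk1, in 9 and 11 (0.35).

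The pair of small Cdk1-binding subunits, Cks1b and Cks2, differed in direction over all kept cells. Cks1b (chromosome 3, 89415472 to 89418383) had a median of 212 TPM and a highest value of 2565 TPM at 14 months, and 62.2 and 2818 TPM at 4 months. Cks2 (chromosome 13, 51645232 to 51650660) had a median of 66.4 TPM and a highest value of 1177 TPM at 14 months, and 152 and 944 TPM at 4 months. Cks1b thus had the higher median at 14 months and Cks2 at 4 months, and for each the lowest cell of both ages was at 0. Mean log2(TPM+1) of Cks1b was 5.87 (SD 3.99) and 4.77 (SD 4.07), a relative difference of 1.46, and that of Cks2 was 4.88 (SD 3.82) and 5.58 (SD 3.76), a relative difference of -0.35. The difference of Cks1b came from set 5, where it was detected in 86.5% of cells and stood at 2.83; in set 4 it was in 58.6% and at -0.23. Cks2 was at -0.57 in set 4 and -0.14 in set 5, but it turned positive, to 0.21, in cells with at least 2000 genes detected and to 0.51 in cells matched on genes detected.

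Ube2c, the ubiquitin-conjugating enzyme of the anaphase-promoting complex (chromosome 2, 164769898 to 164778822), was detected in 24 of 66 and 21 of 64 cells. Its highest cells held 1506 and 2298 TPM, and its median was 0 TPM in both ages. The mean log2(TPM+1) was 2.70 (SD 3.78) and 2.06 (SD 3.55), a relative difference of 0.99. Cdc20 went the other way on the uncorrected scale, with 1.19 (SD 2.45) at 14 months and 1.69 (SD 3.03) at 4 months, detection in 14 and 17 cells and a relative difference of -0.14. G2e3, a ubiquitin ligase named for its G2 expression, was in 20 and 15 cells, with highest values of 722 and 72.1 TPM and a relative difference of 1.14. Cdca3, a trigger of mitotic entry, was in 24 and 23 cells at 0.50.

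At the kinetochore and centromere 6 of 8 members had a higher uncorrected mean at 14 months with the sets pooled (75.0%, against 23.0% of measured genes). In set 4 3 of 8 did (37.5%, against 22.1%) and in set 5 7 of 8 (87.5%, against 28.7%). Ndc80 and Nuf2, which pair in the complex that grips spindle microtubules, were in 21 and 17 cells at 14 months and in 15 and 11 at 4 months. Their relative differences were 1.22 and 1.01. Without the correction Ndc80 differed by 0.56 in set 4 and 1.11 in set 5, and Nuf2 by 0.24 and 0.97. Cenpe, a kinesin that moves chromosomes to the spindle middle, was in 27 and 26 cells (0.93), and Cenpf, a large kinetochore protein, in 22 and 25 (0.46). Cenpa, the histone H3 variant that marks centromeres, was in 24 and 20 cells at 0.71, whereas its chaperone Hjurp had the lowest relative difference of the list. Hjurp (chromosome 1, 88262471 to 88277633) had a median of 1.94 TPM and a highest value of 519 TPM at 14 months, and 14.6 and 476 TPM at 4 months. It was detected in 36 of 66 cells (54.5%, 95% limits 41.8 and 66.9%) and 41 of 64 (64.1%, 95% limits 51.1 and 75.7%), and its mean log2(TPM+1) was 2.55 (SD 2.81) and 3.70 (SD 3.08). The chaperone was thus lower at 14 months, by a relative -0.79, with -1.03 in set 4 and -0.57 in set 5, while the histone it loads was not. Birc5 (survivin), a subunit of the chromosomal passenger complex, was detected in 25 and 33 cells but at higher levels in the 14-month cells that held it, with means of 7.53 and 6.07 over those cells. Its relative difference was 0.10, with -0.47 in set 4 and 0.58 in set 5.

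Spindle and microtubule genes had the lowest median relative difference of the 7 roles. Of the 15 members 6 had a higher uncorrected mean at 14 months (40.0%, still above the 23.0% of measured genes). None reached a relative difference of 1, against 3.37% of measured genes. The median was 0.34, about where a gene at 0 in every cell stands. Tpx2, which activates Aurka and seeds spindle microtubules, was in 23 of 66 and 29 of 64 cells at -0.49. Psrc1, a spindle regulator, was in 8 and 16 cells at -0.37, and Dlgap5 at -0.26. Ckap5 was the highest, at 0.94, with 0.20 in set 4 and 1.57 in set 5. Kif11, the kinesin that pushes spindle poles apart, was in 21 and 26 cells at 0.35, and Tubb4b, a beta tubulin, in 41 and 43 cells at -0.17. Of the 3 cytokinesis genes, Ect2, the exchange factor that starts the contractile ring, had the highest relative difference of the whole list. Ect2 (chromosome 3, 27097222 to 27153878) was detected in 27 of 66 cells (40.9%, 95% limits 29.0 and 53.7%) and 17 of 64 (26.6%, 95% limits 16.3 and 39.1%). Its highest cells held 711 and 561 TPM. Its mean log2(TPM+1) was 2.45 (SD 3.24) and 1.34 (SD 2.43), a relative difference of 1.47 that was 1.49 in each set. Anln, a scaffold of the ring, was at 0.75, and Kif23, the kinesin of the central spindle, at -0.21.

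With the sets pooled, all 8 genes of chromosome structure and chromatin had a higher uncorrected mean at 14 months, against 23.0% of measured genes. In set 5 all 8 did, against 28.7%. In set 4 5 of 8 did (62.5%, against 22.1%), with Mki67, Ncapd2 and Cbx5 lower. Top2a, the topoisomerase that untangles sister chromosomes (chromosome 11, 98992943 to 99024189), was detected in 43 of 66 and 41 of 64 cells, near-equal shares of 65.2% and 64.1%. Its medians were 40.0 and 11.1 TPM, and its highest cells held 1410 and 1618 TPM. The mean log2(TPM+1) was 4.84 (SD 4.03) and 4.17 (SD 3.65), and over the cells that held it 7.31 and 6.46. Smc4 was likewise in similar shares of cells, 75.8% and 81.2%, but its median was 130 TPM and 76.7 TPM and its highest value 3049 TPM and 550 TPM. Its relative difference was 1.40, with 0.49 in set 4 and 2.14 in set 5. Mki67, the chromosome coat protein used as a proliferation marker, was in 41 and 36 cells with medians of 11.4 and 3.33 TPM, at 0.22 in set 4 and 1.60 in set 5. Hmgb2 had medians of 195 and 131 TPM and a relative difference of 0.85. Of the nuclear envelope genes, Lbr had medians of 221 and 79.8 TPM and stood at 1.15 in set 4 and 1.26 in set 5, and Tmpo, which encodes the lamina-associated polypeptides, had medians of 67.2 and 70.9 TPM at a relative 0.91. Rangap1, the activator of the Ran GTPase, was at -0.01. The members without values so far lay between these extremes. Among chromosome genes, Cbx5, a heterochromatin protein, stood at a relative 0.76, Ncapd2, a condensin subunit, at 0.72 and Cdca2, which targets a phosphatase to chromosomes, at 0.75. Among spindle genes, the kinesin Kif20b stood at 0.84, Hmmr at 0.69, Tacc3, which steadies spindle microtubules, at 0.60, and Ckap2l and Ckap2 at 0.34 and 0.10.

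The transcripts of 4 members share sequence with other genes of the table, so their values are less certain. Alignment of GENCODE M21 transcripts at 95% identity over at least 300 bases paired Hmgb2 with 4 such genes, Tubb4b with Tubb4b-ps1, Ndc80 with 2700099C18Rik and Lbr with Dnah14. For Ndc80, with means of 52.9 TPM at 14 months and 15.7 TPM at 4 months, the partner 2700099C18Rik had means of 8.87 and 11.1 TPM, which at 4 months is not low beside it. The other partner genes had means over an age of at most 6.96 TPM.

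With the sets pooled, the other genes of the pathway stood between the members and the measured genes in the counts of higher genes. A list of 77 further G2 and mitosis genes had 74 measured, of which 40 had a higher uncorrected mean at 14 months (54.1%, against 66.0% of the members and 23.0% of measured genes). A relative difference of 1 or more was reached by 9 of the 74 (12.2%) and of -1 or less by none, and the median was 0.41, with 0.33 in set 4 and 0.53 in set 5. Without the correction that median was 0.06, against 0.34 for the members. A higher mean was found for 29 genes in set 4 (39.2%, against 22.1% of measured genes) and 48 in set 5 (64.9%, against 28.7%). In set 4 a relative difference of 1 or more was reached by 5 of these genes (6.76%, against 4.0% of the members and 4.59% of measured genes). There the further genes thus did not stand between the other groups. In set 5 it was reached by 13 (17.6%, against 36.0% and 6.63%). Among the highest were Smc2, the partner of Smc4 in condensin (1.74, in 52 of 66 and 35 of 64 cells), Knl1, a kinetochore scaffold (1.30), and the kinesin Kif15 (1.22). The lowest were Spc24, of the same complex as Ndc80 and Nuf2 (-0.99, in 56 and 61 cells), Racgap1, the partner of Kif23 (-0.46), the kinesin Kif20a (-0.45) and Fzr1, the other activator of the anaphase-promoting complex (-0.39). The complex of Ndc80, Nuf2 and Spc24 thus held both high and low values.

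With the sets pooled, genes of earlier cycle phases stood lower. Among the 43 S phase genes 16 had a higher uncorrected mean at 14 months (37.2%) and 2 reached a relative difference of 1 (4.65%), with a median of 0.14. In set 4 2 S phase genes reached 1 (4.65%, against 4.0% of the members). Their median there was 0.24, against 0.41 for the members, both below a gene at 0 in every cell (0.43). In set 5 3 reached 1 (6.98%, against 36.0%), with medians of 0.20 and 0.85. Among 10 measured G1 cyclins, kinases and E2F factors 2 had a higher mean, none reached 1 and the median was 0.03. The number of members in a cell followed the number of S phase genes, with Spearman correlations of 0.66 across 66 cells of 14 months and 0.79 across 64 of 4 months. With genes detected taken out, these were 0.07 and 0.40. For the 77 further G2 and mitosis genes the same values were 0.91 and 0.94, and 0.77 and 0.83 with genes detected taken out. Cells with 30 or more members held a median of 24 of the 43 S phase genes at 14 months (20 cells, lowest 10, highest 36) and 34.5 at 4 months (18 cells, lowest 12, highest 41). Their medians of all genes detected were 3989 and 5179.5, which move with that difference, and their part in it was not tested. At both ages the members thus followed the further mitosis genes more closely than the S phase genes. Whether the ages differ in this was not tested.

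**Figure D5:**
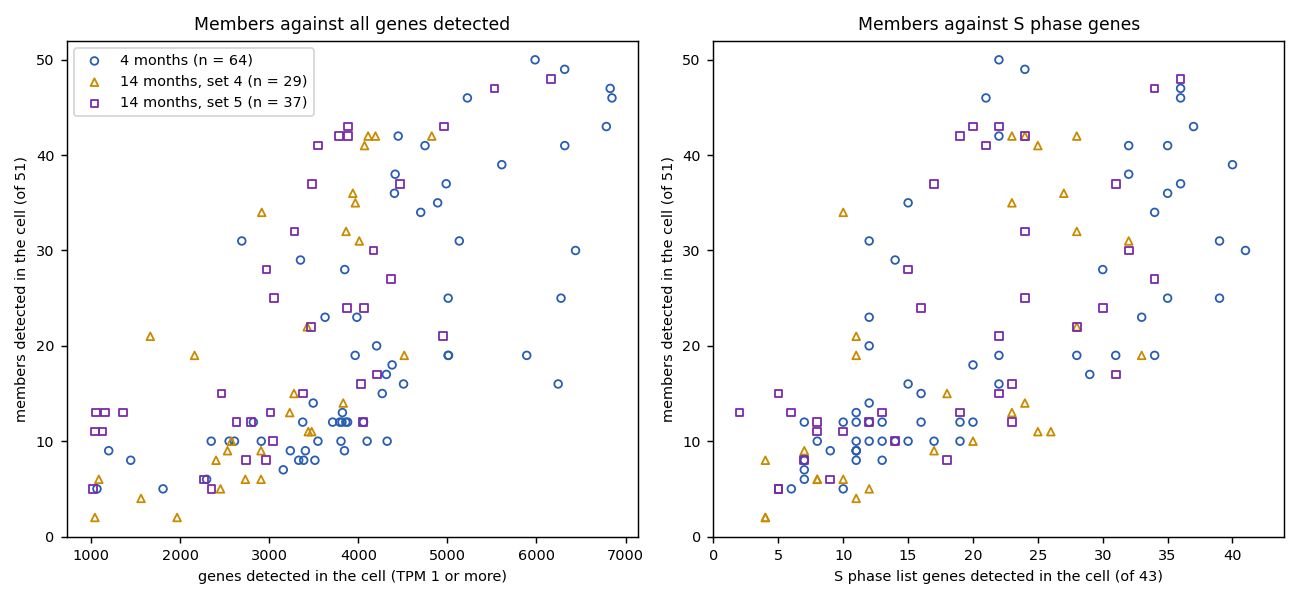
Members detected in each kept cell (y axis, of 51) against all genes detected (left x axis) and against S phase genes detected (right x axis, of 43), for 4 months (circles, n = 64), set 4 (triangles, n = 29) and set 5 (squares, n = 37). Both clouds slope upward, and in the left panel most cells of 14 months with 40 or more members lie to the left of the 4-month cells with as many.

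Among the measured genes that are no members, those whose levels followed the number of members most closely at both ages were Kif15 (0.77 at 14 months and 0.79 at 4 months), Hist1h4d (0.75 and 0.69), Prc1 (0.68 at both), H2afx (0.67 and 0.73), H2afz (0.66 and 0.75), Hist1h2ap (0.67 and 0.65), Aspm (0.65 and 0.63) and Pbk (0.62 and 0.76). These are Spearman correlations over 66 and 64 cells. Of these 8 genes 4 are histone genes and 4 come from the list of further mitosis genes. Their relative differences between the ages ran from -0.88 for Hist1h2ap to 2.27 for H2afz.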

How the data were processed

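Single LMPPs were profiled at 4 and 14 months. The authors deposited a table of TPM values with cells in columns. RSEM 1.2.12, Bowtie2 2.2.0 and build mm10 are named, per the submitters' processing notes; no source used here gives the annotation. Columns beginning with o were taken as 14 months and those with y as 4 months, the older and younger age of the titles; single columns were not matched to single labels. Symbols were found for 37607 of 38924 row identifiers. No column was left unused. Cells with at least 1000 genes at TPM 1 or more were kept. Means and SDs of log2(TPM+1) (pseudocount 1) and shares with exact (Clopper-Pearson) 95% intervals were computed per age and set. A gene was measured at a mean share of 10% or more. With 1 sample per age no test was run. Depth is unknown, because TPM sums to 1000000 in each cell. No doublet caller was run, since it needs counts. Members, lists, naming rules and alternatives were chosen with earlier results of these data known. Named genes are a panel of key members, the extremes of difference, detection and correlation, and the extremes of the list of further genes. A gene that this rule would name is not reported here. The calculation was tested on resampled kept cells, with known changes put into genes found in many cells. It was not tested for genes in few cells or for groups that differ in genes detected. Coordinates are from GENCODE M21. Python 3.11.15, numpy 2.4.6, pandas 2.3.3 and scipy 1.17.1 were used.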

Additional observations from a re-analysis of the deposited data

How the results depend on the processing

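The members' median relative difference was positive under each alternative except medians over cells, where it was 0.00. It was 1.06 with pseudocount 0.1, 0.34 with pseudocount 10, 0.34 without centring on the median gene and 1.06 in cells matched on genes detected. The count of members higher by 1 or more, 9 as reported, was 26 and 1 with pseudocounts of 0.1 and 10, 3 with no filter on low genes, 15 in cells with at least 2000 genes, 15 without mitochondrial transcripts, 14 after quantile normalization, 27 in matched cells, 2 in set 4, 18 in set 5, 3 without centring and 4 with medians over cells. The share of all measured genes higher by 1 or more was 3.37% as reported, and 10.6% and 0.564% with pseudocounts of 0.1 and 10. It was 0.814% with no filter, 4.06% with at least 2000 genes, 4.07% without mitochondrial transcripts and 3.9% after quantile normalization. In set 4 it was 4.59% and in set 5 6.63%, and for the other alternatives it is not given here. The count of members lower by 1 or more was 0 as reported. It was 1 with no filter on low genes, 1 in set 4, 1 without centring and 4 with medians over cells. Of all measured genes 5.08% were lower as reported, 5.04% with no filter and 6.75% in set 4. The difference in median members per cell, -0.5 as reported, was 3.5 in cells with at least 2000 genes, 10 in matched cells, 4.5 with detection at TPM above 0 and 2 at TPM 10 or more. The cause of these shifts was not tested. Of the 50 measured members 31 showed no change of sign under the 18 alternatives, where a fall to exactly 0 was not counted as a change. Of the 9 at 1 or more only Cks1b changed sign, to -0.23 in set 4. Bub1, G2e3, Ndc80 and Nuf2, also among these 9, had a lowest value of 0 over the alternatives. Leaving out 1 cell of each like pair, an alternative chosen after seeing the data, gave a median of 0.71 and 10 members higher by 1 or more. No paired analysis was possible because the numbers in the column names are not stated to pair cells of the 2 ages and each age is 1 sample. Shares near the detection threshold and genes in few cells are limited by the number of cells and by unknown depth.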

Other observations

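Columns left out for holding fewer than 1000 genes still held a few members. The 20 such columns of 4 months held 0 to 8 members with a median of 3, and the 16 of set 4 held 1 to 9 with a median of 3. The 2 of set 5 held 9 each.

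The number of members was also set against the number of listed lineage genes in a cell. The Spearman correlation with granulocyte and monocyte genes was 0.44 over the 66 cells of 14 months and 0.41 over the 64 of 4 months. With genes detected taken out it was 0.00 and -0.03, but -0.21 in the 29 cells of set 4 and 0.11 in the 37 of set 5. For lymphoid genes these values were -0.02 and 0.04, and -0.35 in set 4 and 0.26 in set 5, so the pooled value joins sets of opposite sign. For stem cell genes they were -0.02 and -0.03, with -0.19 and 0.07 in the sets, and for erythroid and megakaryocyte genes -0.11 and -0.13, with -0.01 and -0.23. Gata1, the erythroid and megakaryocyte master factor, was listed at 0 in every kept cell. Genes of the CDK inhibitors and the Rb family, which hold cells out of cycle, had positive values, 0.30 and 0.28, with 0.52 in set 4 and 0.26 in set 5. Of these 10 listed genes 7 were measured. The list of G1 cyclins, kinases and E2F factors had -0.34 and -0.003, with -0.44 in set 4 and -0.34 in set 5. No background was computed for these adjusted values.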
